A study of Mus musculus with 2 samples.

Results

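The genes described here were 54 chromatin regulators, made up of subunits of the BAF (SWI/SNF) remodelling complexes, the Polycomb complexes PRC2 and PRC1, trithorax-type histone methyltransferases with the H3K27 demethylases, and the CHD remodellers. They were taken by name from among 21938 protein-coding genes, by a rule that uses no measured value. Their chromatin accessibility was read from 557 of the 119502 consensus intervals of an ATAC-seq experiment, in which the Tn5 transposase inserts adapters into open DNA. Of these 557 intervals, 72 overlapped an annotated transcription start site (TSS) of a member and 485 were distal intervals whose nearest protein-coding TSS belonged to a member. The cells came from the mouse ES line Olig2-mKate2, in which the red fluorescent protein mKate2 follows Olig2 expression, and were neural progenitors (NPs) sorted live for mKate2 at day 5. They had first been given bFGF with LGK, then bFGF with CHIR99021, SB-431542 and DMH1, and last 100 nM SAG, an agonist of Sonic hedgehog (Shh) signaling, with 100 nM retinoic acid (RA) until harvest. Each transposition used 50000 cells, and there were 2 replicates of this 1 group, so no conditions were compared. Nothing in the labels says that the replicates came from separate cultures, and the spread between them may be technical. By the study's own account, a sort on the reporter also takes in newly born motor neurons and some cells positive for both OLIG2 and NKX2.2.

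BAF complexes use an ATPase to slide or evict nucleosomes, and in the developing nervous system progenitor forms of several subunits are replaced by neuronal forms as cells leave the cell cycle. PRC2 methylates H3K27 and PRC1 ubiquitylates histone H2A and compacts chromatin, and together they keep developmental genes silent. Trithorax-type methyltransferases act against them at histone H3K4, H3K27 demethylases remove the Polycomb mark, and CHD proteins are ATPases with chromodomains that space, exchange or evict nucleosomes. ATAC-seq reads the accessibility of the genes encoding these proteins, not their RNA or protein. In a bulk sample, fewer cells with an open site and a less open site in every cell cannot be told apart.

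Replicate 1 held 31876165 counts in intervals and replicate 2 held 31672240. Counts were normalised for depth with DESeq2 size factors, and accessibility is given below as a density, the normalised counts per kb of interval. The promoter density of a gene was the summed normalised count of its TSS intervals divided by their summed length, and 0 where no interval overlapped a start. Values are means ± SD over the 2 replicates. The labelled identity was checked against marker genes. All 6 pMN and neural progenitor markers had a TSS interval, with a median promoter density of 904, and Olig2 itself stood at 946 ± 23.2. They ran from 577 ± 4.65 for Pax6 to 1498 ± 73.3 for Sox1. The 4 newborn motor neuron markers had a median of 515, and 2 of 3 p3 and floor plate markers had a TSS interval, Nkx2-2 with 711 ± 19.9 and Foxa2 with 584 ± 53.99, while Shh was at 0, and their median was 584. Pax6 was below Nkx2-2 and the motor neuron marker Tubb3 (714 ± 1.57) and close to Foxa2, so these marker sets overlapped. Sox1 and Tubb3 lie on chromosome 8, where the median density of TSS intervals was 1.40 ± 0.0187 times that of the other autosomes. The part of this in their values was not tested. Among 4 pluripotency markers the median was 119, with Pou5f1 and Nanog at 0. The 4 fibroblast markers, a check for feeder cells, all had a TSS interval and a median of 269, from 123 to 472. Of 4 markers of unrelated tissues, 3 were at 0.

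Nearly all members had an open promoter. A TSS interval was present for 52 of the 54 (96.3%), against 68.1% of all protein-coding genes. The exceptions were Chd3, an ATPase of the NuRD complex, and Kdm6b, an H3K27 demethylase. The median promoter density over the 54 genes was 864 in replicate 1 and 813 in replicate 2, a mean of 842 ± 36.2. This was 1.72 ± 0.0453 times the median of all protein-coding genes, which was 491. Among genes with a TSS interval the median was 828, and the ratio to it was 1.02. Set against all genes the members were high, and set against genes with a TSS interval they lay close to the middle. The ratio was 2.70 as counts per gene, and 3.84 when TSS intervals shared with another gene were left out, which lowers the median of all genes. In numbers, 46 of 54 members were above the median of all genes, and 28 were above the median of genes with a TSS interval. In the upper quartile of all genes, which began at 1029, there were 21 members (38.9%), against 25% of all genes by construction. Of genes with a TSS interval 36.7% were there, so the member share was close to theirs.

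**Figure D1:**
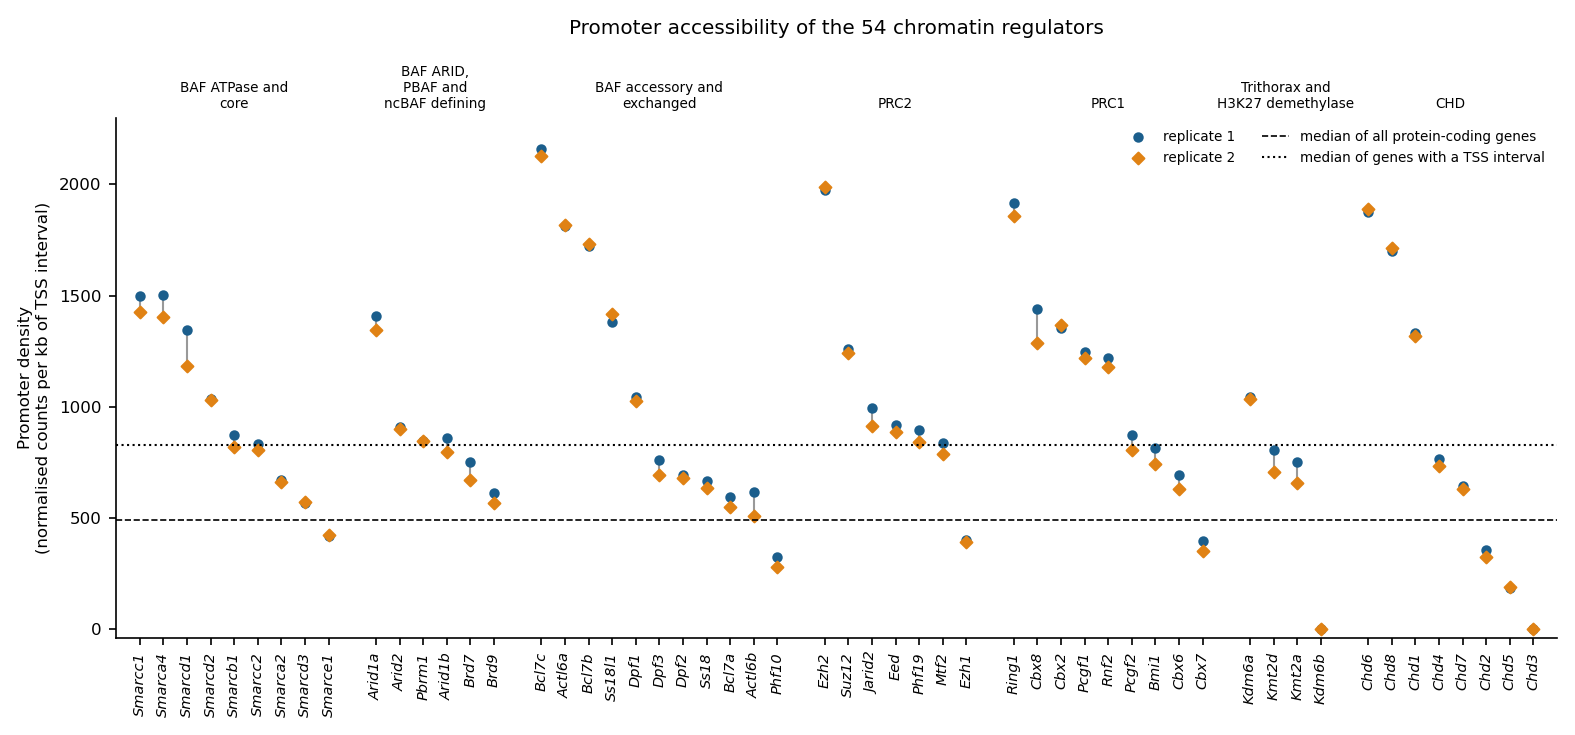
Promoter density (y axis, normalised counts per kb of TSS interval) of each of the 54 members (x axis), grouped by complex and ordered by mean within each group, with a point for each replicate joined by a line. The dashed line is the median of all protein-coding genes (491) and the dotted line that of genes with a TSS interval (828), and values run from 0 for Kdm6b and Chd3 to 2143 for Bcl7c.

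Over 1 TSS interval was found at 14 members (25.9%), against 10.1% of all genes, 14.8% of genes with a TSS interval and 26% of 50 other chromatin genes, which are subunits and partners of the same complexes outside the list. A TSS interval over 2500 bp was found at 9 members (16.7%), against 3.69%, 5.42% and 6% in the same order. The longest was the 4677 bp interval of Arid2, the subunit that defines PBAF, at chr15:96284013-96288689 with 904 ± 4.45 counts per kb, followed by a 4046 bp interval of the ATPase gene Smarca2. A start shared with another gene was seen at 5 members (9.26%) against 12.9% of all genes, a small count that does not separate them. These were Smarcc1 with Dhx30, Pbrm1 with Gnl3, Brd9 with Trip13, Ss18l1 with Psma7 and Cbx6 with Npcd, and the counts of each shared interval cannot be divided between its genes.

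The 9 genes for the ATPases and core subunits of BAF all had a TSS interval, with a median density of 846 ± 37.5. The highest was Smarcc1, encoding a scaffold subunit, with 1500.1 in replicate 1 and 1427 in replicate 2. The lowest was Smarce1, encoding the HMG-domain subunit, with 418 and 423. The Smarce1 value joined a 1582 bp interval at the 5′ end of the gene, with 673 ± 4.53, to an internal interval of 41.3 ± 0.648 at the start of a non-coding transcript. Between the alternative ATPases, Smarca4 (BRG1) had 1502 and 1404, and Smarca2 (BRM) had 670.1 and 662. The log2 ratio was 1.13 ± 0.06, and the replicates of the 2 genes did not overlap. The order depended on the division by length. Smarca2 had 5591 bp of TSS intervals and Smarca4 had 1276 bp, and as counts per gene the log2 ratio of Smarca4 to Smarca2 was -1.01.

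The other core subunits fell between these. Smarcc2, the paralogue of Smarcc1, had 830.3 and 804, so that Smarcc1 was higher by 0.84 ± 0.02 on the log2 scale. The Smarcc2 value joined an interval of 1122 ± 37.1 at the 5′ end to a weak internal one of 94.2 ± 25.8. The log2 ratio was 0.67 at the 5′ end only and 0.38 with starts of coding transcripts only. The 5′ interval of Smarcc1 was shared with Dhx30, so this ratio does not isolate Smarcc1. Of the BAF60 genes, Smarcd1 had 1347 and 1184, Smarcd2 had 1035 and 1031, and Smarcd3 had 567 and 569. Smarcd1 exceeded Smarcd3, the form linked to muscle and neurons, by 1.15 ± 0.14 on the log2 scale. Smarcd3 had 4 TSS intervals, the most of any member, and as counts per gene the ratio turned to -1.26. Smarcb1, the subunit lost in rhabdoid tumours, had 873 and 819.7.

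The 6 genes that define the forms of the complex had a median of 835 ± 21.6, and all were above the median of all genes. Arid1a, whose product marks canonical BAF, was highest with 1407 and 1346, and its paralogue Arid1b had 856 and 795. The log2 ratio of Arid1a to Arid1b was 0.74 ± 0.03. Arid1a had an interval of 1562 ± 55.6 at its 5′ end, another of 1411 ± 32.7 at an internal non-coding transcript and a weak one of 73.8 ± 30.3. For PBAF, Arid2 had 907 and 901, Pbrm1 had 844.2 and 844.1, and Brd7 had 752 and 668. Brd7 lies on chromosome 8, where the median density of TSS intervals was 1.40 ± 0.0187 times that of the other autosomes, and the part of this in the Brd7 value was not tested. Brd9, the bromodomain subunit of non-canonical BAF, was lowest with 610.4 and 565.

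Subunits that are exchanged during neurogenesis did not share a direction. Actl6a (BAF53a) is the progenitor form and Actl6b (BAF53b) the neuronal form of an actin-like subunit. Actl6a had 1811 in replicate 1 and 1819 in replicate 2, and Actl6b had 614 and 508. The only TSS interval of Actl6a lay at starts inside the gene record, and the 5′ end of the record had none. The groups of values did not overlap and the ratio was 3.25-fold, a log2 ratio of 1.70 ± 0.20. The Actl6b interval, at chr5:137553217-137554015, held 490 and 406 counts, and the density of Actl6b was above that of 53.2% of genes. For the PHD finger subunits the order was the opposite. Phf10 (BAF45a), the progenitor form, had 322 and 277, the lowest of the 11 accessory and exchanged subunits. Dpf1 (BAF45b) had 1041 and 1026 and Dpf3 (BAF45c) had 759 and 693, both neuronal forms. The log2 ratio of Phf10 to Dpf1 was -1.79 ± 0.14 and that of Phf10 to Dpf3 was -1.28 ± 0.06. Dpf2 (BAF45d), which is broadly used, had 691 and 680.0, and was below Dpf1 by a log2 ratio of -0.59 ± 0.001. Ss18, the form of progenitors, had 665 and 635 and Ss18l1 (CREST), the neuronal form, had 1380 and 1415, a log2 ratio of -1.10 ± 0.07. The interval of Ss18l1 was shared with Psma7, a proteasome gene, so this ratio does not isolate Ss18l1.

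The promoters of both exchanged sets are shown because the order of density ran in opposite directions in them. Each is the stretch before the annotated start that holds no exon, within 250 bases, from RefSeq promoters on GRCm38.p6 (mm10), and overlapped a TSS interval of its gene. Capitals mark matches of either strand to GGGCGGG, a core read by SP and KLF factors, and to CCAAT, the box read by NFY.
Actl6a, chr3:32708296-32708506, plus strand: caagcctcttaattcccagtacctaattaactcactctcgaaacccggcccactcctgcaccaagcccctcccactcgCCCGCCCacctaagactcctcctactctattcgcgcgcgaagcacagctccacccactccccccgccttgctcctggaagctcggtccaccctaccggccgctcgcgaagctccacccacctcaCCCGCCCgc
Actl6b, chr5:137553296-137553516, plus strand: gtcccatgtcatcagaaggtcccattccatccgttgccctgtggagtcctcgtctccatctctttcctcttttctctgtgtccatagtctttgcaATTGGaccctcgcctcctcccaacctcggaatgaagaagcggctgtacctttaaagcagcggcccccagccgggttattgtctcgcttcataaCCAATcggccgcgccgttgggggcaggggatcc
Phf10, chr17:14961274-14961510, minus strand: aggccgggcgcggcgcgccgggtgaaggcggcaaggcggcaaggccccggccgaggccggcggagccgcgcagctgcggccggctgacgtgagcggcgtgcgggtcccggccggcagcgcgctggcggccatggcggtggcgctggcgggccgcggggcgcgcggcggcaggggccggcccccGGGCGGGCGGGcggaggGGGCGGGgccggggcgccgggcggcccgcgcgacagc
Dpf1, chr7:29303755-29303950, plus strand: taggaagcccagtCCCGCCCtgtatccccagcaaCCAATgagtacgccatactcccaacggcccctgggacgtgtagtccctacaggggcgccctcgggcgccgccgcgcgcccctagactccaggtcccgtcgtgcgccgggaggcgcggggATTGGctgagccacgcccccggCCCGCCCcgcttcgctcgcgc
In the stretches printed, those of Actl6a and Phf10, the progenitor forms, held GGGCGGG without CCAAT, that of Actl6b held CCAAT without GGGCGGG, and that of Dpf1 held both. The full Actl6b promoter, which runs 50 bases past the start, also held GGGCGGG. Phf10 had 88.2% G or C and 47 CpG in the stretch printed, beside a density of 299.6 ± 31.4, whereas Actl6a had 64.0% and 16 CpG beside 1815 ± 6.02. The part of base composition in these densities was not tested.

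Dpf1 had 3 TSS intervals. The 1 at the 5′ end, 1567 bp long, had 1004 ± 13.9, and those at internal coding starts had 1346 ± 32.2 and 634 ± 57.2. The Bcl7 genes, which encode small accessory subunits, ranged widely. Bcl7c, at chr7:127707846-127709132, was the highest of all 54 members with 2159 and 2127, above 97.4% of protein-coding genes. Bcl7b had 1723 and 1729.8, and Bcl7a had 595 and 549 over an interval of 2943 bp.

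**Figure D2:**
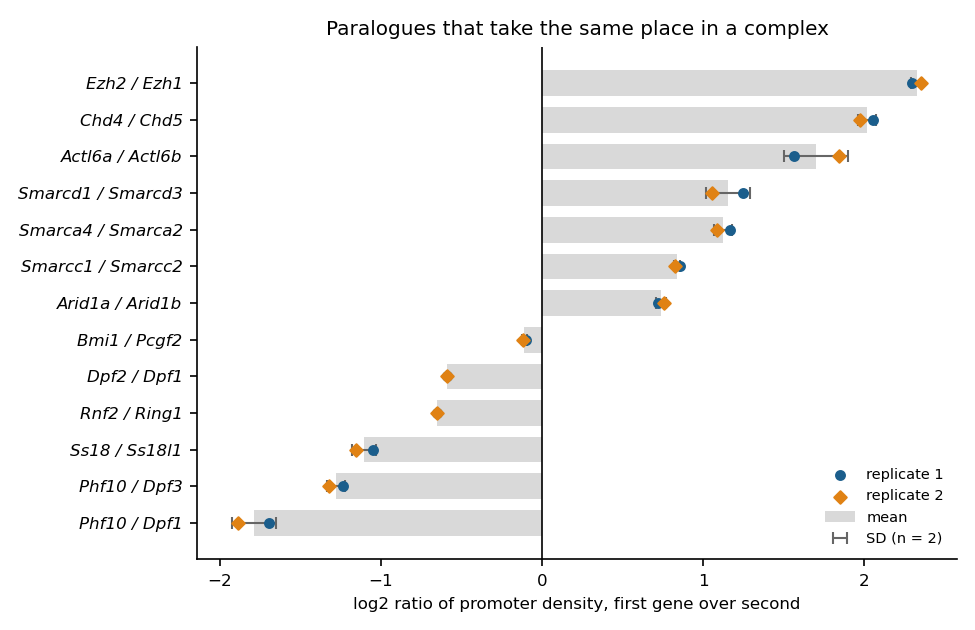
log2 ratio of promoter density (x axis), first gene over second, for the 13 paralogue pairs in which both genes had a TSS interval (y axis), with a bar for the mean, a point for each replicate and an error bar for the SD (n = 2). The first gene was higher in 7 pairs and the second in 6, from 2.32 for Ezh2 over Ezh1 to -1.79 for Phf10 over Dpf1.

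Of 15 paralogue pairs compared, 13 had a TSS interval at both genes, and in all 13 the replicates fell on the same side of 0 with a mean over 2 SD from it. The replicates were close at TSS intervals in general, with a squared correlation of log2 counts of 0.992 over all of them. The share of other gene pairs that pass the same limit was not counted, so the 13 are not a result about paralogues. The first gene of the pair was higher in 7 and the second in 6. Both genes of a pair were read in the same 2 replicates and the ratio was taken within each. With only 2 such paired ratios no test was made. Kdm6a over Kdm6b and Chd4 over Chd3 had no ratio, since the second gene had no TSS interval.

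PRC2 genes had a median density of 902 ± 23.8, with a TSS interval at all 7. Ezh2, encoding the methyltransferase of dividing cells, had 1974 in replicate 1 and 1989 in replicate 2. Ezh1, encoding the form that persists in non-dividing cells, had 401 and 390.0. The ratio was 5.01-fold, a log2 ratio of 2.32 ± 0.04, and Ezh2 was above 96.1% of all protein-coding genes whereas Ezh1 was above 45.7%. Ezh1 had 2 TSS intervals, of 559 ± 5.12 at the 5′ end and 183 ± 24.9 at an internal non-coding start. The ratio depended on which intervals were taken, with a log2 ratio of 1.83 at the 5′ end only and 1.68 within 1 kb of a start. The promoters of the pair are shown for this difference, on the same terms as those above.
Ezh2, chr6:47595059-47595183, minus strand: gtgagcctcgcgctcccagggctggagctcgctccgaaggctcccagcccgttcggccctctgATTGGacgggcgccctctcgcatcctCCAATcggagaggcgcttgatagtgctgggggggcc
Ezh1, chr11:101226464-101226713, minus strand: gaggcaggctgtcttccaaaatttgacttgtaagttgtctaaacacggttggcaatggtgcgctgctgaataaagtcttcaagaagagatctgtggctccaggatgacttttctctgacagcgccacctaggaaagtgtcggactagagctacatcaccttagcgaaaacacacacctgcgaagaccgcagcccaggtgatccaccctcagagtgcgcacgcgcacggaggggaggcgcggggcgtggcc
In the Ezh2 stretch CCAAT occurred on each strand, and the Ezh1 stretch held neither set of letters.

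The partners of the methyltransferase were less extreme. Suz12 and Eed, core subunits needed for activity, had 1259 and 1241, and 919 and 885. Jarid2, which helps to recruit the complex, had 994 and 911 over 3 TSS intervals, of 1195 ± 90.4, 1121 ± 50.0 and 478 ± 21.6. Of the Polycomb-like genes, Mtf2 had 835 and 787 and Phf19 had 895 and 839. The Phf19 value was a mixture. Its 2547 bp interval at the 5′ end had 257 ± 3.20, and a 966 bp interval inside the gene, at chr2:34904678-34905643 over the start of a non-coding transcript, had 2477 ± 134.

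PRC1 genes had a median of 1200.0 ± 29.2, the highest of the 7 families by density but not as counts per gene. All 9 had a TSS interval and 5 (55.6%) were in the upper quartile, against 36.7% of genes with a TSS interval. The E3 ligase genes Ring1 and Rnf2 (RING1B) had 1918 and 1857, and 1221 and 1179, a log2 ratio of Rnf2 to Ring1 of -0.65 ± 0.002. Of the PCGF genes, whose products set the kind of PRC1, Bmi1 and Pcgf2 lay close together and Pcgf1 was higher. Bmi1 (PCGF4) had 813 and 741, Pcgf2 (MEL18) had 872 and 806, and Pcgf1 had 1246 and 1217. The log2 ratio of Bmi1 to Pcgf2 was -0.11 ± 0.02, and it turned to 0.05 when only the 5′ end or only the strongest TSS interval of each gene was used, since Bmi1 had another, weaker interval of 549 ± 3.45. The order of this pair was thus not fixed. The CBX genes, whose products read H3K27 methylation, were spread most. Cbx2 had 1353 and 1366 and Cbx8 had 1439.5 and 1288, Cbx6 had 689.7 and 631, and Cbx7 was lowest with 393 and 349 over 3 TSS intervals. Cbx2 and Cbx8 lie next to each other on chromosome 11.

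Of the trithorax and demethylase genes, Kmt2a (MLL1) had 749 and 658 and Kmt2d (MLL4) had 805 and 706. Kdm6a (UTX) had 1045 and 1032 on the X chromosome, where the median density of TSS intervals was 0.634 ± 0.0108 times that of autosomes. Kdm6b (JMJD3) had no interval over any annotated start. The nearest was a 3590 bp interval at chr11:69408548-69412137, 1538 bp from a start, with 1014 and 1018, over an untranslated exon of the gene. Another at chr11:69417287-69419899, 3612 bp away, had 1241 and 1205. Both were above the median TSS interval of the table, 743, so a promoter density of 0 at Kdm6b did not mean a locus without open chromatin.

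The CHD genes had a median of 692 ± 16.2. This was the lowest of the families, but Chd3 entered it at 0, and within 1 kb of a start the median was 748, above those of the accessory BAF (685) and trithorax (729.5) families. As counts per gene it was 1976, the highest of the families. Chd6 had 1874 and 1891, Chd8, which is mutated in autism, had 1702 and 1715, and Chd1, which acts with elongating RNA polymerase II, had 1330.2 and 1316. Chd7, mutated in CHARGE syndrome, had 644 and 628 over a 3150 bp interval. Among the NuRD ATPases, Chd4 had 762 and 732 and Chd5, the neuronal form, had 184 and 186, the lowest of the members with a TSS interval. Chd5 was at this level over 2404 bp at chr4:152337563-152339966, with 441 and 448 counts. The ratio of Chd4 to Chd5 was 4.04-fold, a log2 ratio of 2.01 ± 0.06. Their promoters, which differ in this way although each holds GGGCGGG, are shown on the same terms.
Chd4, chr6:125095731-125095980, plus strand: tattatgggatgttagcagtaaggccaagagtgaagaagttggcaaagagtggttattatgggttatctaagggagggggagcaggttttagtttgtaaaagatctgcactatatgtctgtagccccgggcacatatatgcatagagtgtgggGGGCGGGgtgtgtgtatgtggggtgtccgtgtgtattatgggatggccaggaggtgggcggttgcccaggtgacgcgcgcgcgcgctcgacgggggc
Chd5, chr4:152338401-152338650, plus strand: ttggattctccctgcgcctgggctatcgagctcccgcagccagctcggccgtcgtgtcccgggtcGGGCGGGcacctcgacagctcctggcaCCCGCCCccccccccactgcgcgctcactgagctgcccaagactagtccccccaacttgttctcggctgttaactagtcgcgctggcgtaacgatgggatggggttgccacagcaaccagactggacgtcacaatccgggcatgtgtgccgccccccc
Chd5 had 67.2% G or C and Chd4 had 54% in the stretch printed, so the less accessible promoter was the richer in G and C.

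Values of 2 further CHD genes depended on where starts are annotated. Chd3 had no TSS interval, but had intervals 104 bp from a start with 819 ± 25.7 and 129 bp from a start with 381 ± 29.6. When intervals within 1 kb of a start were included, its density was 461 ± 19.4. Chd2, mutated in a childhood epilepsy, had 356 and 323 from an interval of 720.1 ± 23.9 at its 5′ end and a weak one of 82.2 ± 23.3. Its strongest interval missed an annotated start by 17 bp, and within 1 kb the Chd2 density was 749.5 ± 31.1. Kdm6b remained at 0 within 1 kb.

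The member promoters were rich in CpG. RefSeq promoters, from 250 bases before to 50 after each start, were at hand for 43 members with 49 promoters. Their median was 67.3% G or C, with a ratio of observed to expected CpG of 0.882. The ratio was over 0.6 in 46 of 49 (93.9%), against 65.7% of promoters of genes with a TSS interval and 49.1% of all. Below it were the promoters of Smarcd2 (0.177) and Pcgf2 (0.362) and the lower of 2 promoters of Mtf2 (0.132). The promoter densities of Smarcd2 and Pcgf2 were 1033 and 839, each above the median of genes with a TSS interval.

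Short motifs were counted in these 300 bases on both strands. GGGCGGG occurred in 35 of 49 member promoters (71.4%), against 45.5% of promoters of genes with a TSS interval and 35.0% of all. CCAAT occurred in 16 (32.7%), against 37.1% and 37.8%, and TATAAA, the TATA box, in 2 (4.08%), against 7.06% and 12.1%. The E2F letters TTTCCCGC occurred in 5 (10.2%), against 1.86% and 1.45%. E2F factors drive genes of the cell cycle, and the 5 promoters were those of Arid1a, Brd7, Phf19, Smarcd1 and Suz12. Another E2F form, TTTGGCGC, occurred in 1, that of Ezh2. The end of TTTCCCGC can overlap the reverse of GGGCGGG, so a base run can count for both. For ETS factors CCGGAAG occurred in 5 (10.2%), against 15.3% and 11.9%. NRF1 letters, TGCGCATG, occurred in 3 (6.12%), against 3.43% and 2.67%, in Smarca4, Smarcb1 and Smarcc1, and YY1 letters, AAGATGGC, in 2 (4.08%), against 3.85% and 3.11%. Over whole TSS intervals, which are longer at members, YY1 letters occurred in 17 of 72 (23.6%), against 8.97% of all TSS intervals, E2F TTTCCCGC in 14 (19.4%), against 6.30%, and GGGCGGG in 60 (83.3%), against 67.0%. There CCAAT (69.4% against 70.0%), CCGGAAG (23.6% against 27.02%) and TATAAA (16.7% against 20.2%) were not above the general share. In the 300-base promoters of members the ZBTB33 letters TCTCGCGAG and the left part of the RE1 element, TTCAGCACC, had 0 matches. The shares were 1.28% and 0.466% in promoters of genes with a TSS interval. Over whole TSS intervals each occurred in 1 of 72 at members (1.39%), against 1.59% and 2.32% of all TSS intervals. These shares describe letters only, and 5 of 49 promoters is a small number.

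The median number of distal intervals was 4.5 a member, against 2 for all protein-coding genes, and 34 of 54 members (63%) had more than 2, against 42.7%. Genes with a TSS interval had a median of 3 and 52.2% with more than 2, and the 50 other chromatin genes a median of 5 and 70%, so the number was not particular to the members. Members were also longer than all genes, with a median of 34.1 kb against 17.4 kb, and per 100 kb of gene the median was 13.9 against 7.42. No distal interval was nearest to 9 members, namely Actl6b, Bcl7b, Bmi1, Brd9, Dpf2, Pcgf1, Phf10, Smarcb1 and Smarcd1. That is 16.7% of members, against 29.8% of all genes, 20.9% of genes with a TSS interval and 8% of the other chromatin genes. Of the 485 distal intervals, 257 (53.0%) lay inside the member gene. By annotation 225 were intronic, 172 intergenic, 56 over a coding exon, 22 over an exon of a non-coding transcript and 10 over a UTR. Their median density was 116, against 123 for all distal intervals, and their median distance to the start was 19.6 kb, against 24.6 kb. The number depends on the set of starts. With the nearest start taken among all annotated genes, non-coding genes included, 242 distal intervals belonged to members, and 155 of the 485 averaged more than 100 normalised counts.

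**Figure D3:**
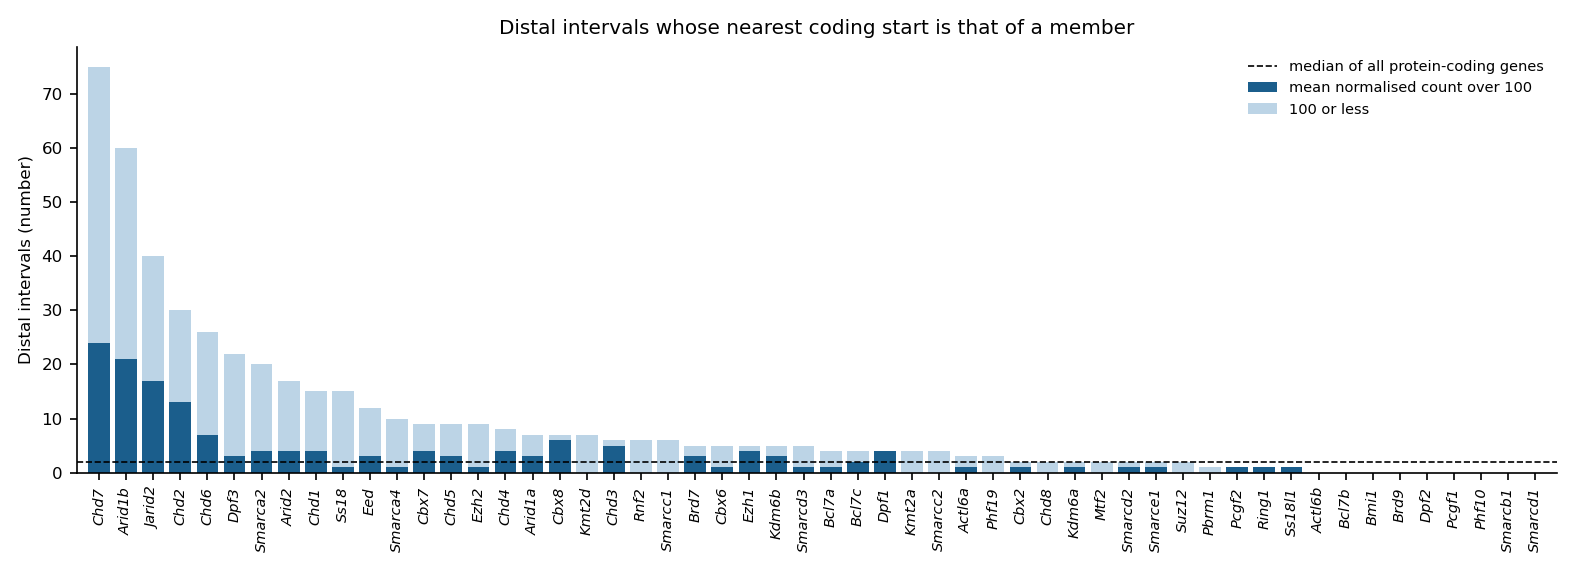
Number of distal intervals (y axis) whose nearest protein-coding TSS is that of each member (x axis), with the dark part of each bar for intervals that averaged more than 100 normalised counts. The dashed line is the median of all protein-coding genes (2), and the bars run from 75 for Chd7 to 0 for 9 members.

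The number was concentrated in a few large genes. Chd7 had 75 distal intervals, Arid1b 60, Jarid2 40, Chd2 30 and Chd6 26. The CHD genes together held 171, a median of 12 a gene. With more than 100 normalised counts on average there were 24 at Chd7, 21 at Arid1b, 17 at Jarid2, 13 at Chd2 and 7 at Chd6. At Chd7, 40 lay inside the gene, 28 beyond its end and 7 upstream. At Arid1b, 43 were inside and 17 upstream, while at Jarid2 27 were upstream and 13 inside. By gene length, Chd7 had 42.3 distal intervals per 100 kb, Chd2 26.0, Jarid2 20.8, Arid1b 17.0 and Chd6 16.04. Cbx8 had the highest value of any member, 150.1, with 7 intervals beside a gene of 4665 bp. Of the counts in all intervals of a gene, the distal share was 96.8% at Chd2, 87.9% at Chd7, 81.5% at Arid1b and 69.3% at Jarid2, against a median of 18.5% over the members. The Chd2 share counts as distal its strongest interval, which missed an annotated start by 17 bp. Kdm6b and Chd3, which had no TSS interval, were at 100%.

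Some distal intervals reached the level of promoters. The median TSS interval had a density of 743, and 24 of the 485 member distal intervals were above it (4.95%), against 3.5% of all distal intervals. They belonged to 10 genes, with 6 at Chd7, 4 at Chd2, 3 each at Arid1b and Jarid2, 2 each at Chd4 and Kdm6b, and 1 each at Arid1a, Chd3, Smarca4 and Smarcd3. The highest was at chr7:73537638-73538319 in Chd2, with 2812 and 2681, which missed an annotated start of Chd2 by 17 bp and overlapped an exon of the non-coding gene Gm44686. The second, at chr7:73557826-73559119 with 2226 and 2174, lay 15996 bp from Chd2 over an exon of 1810026B05Rik (Chaserr), a long non-coding RNA gene known to restrain Chd2.

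**Figure D4:**
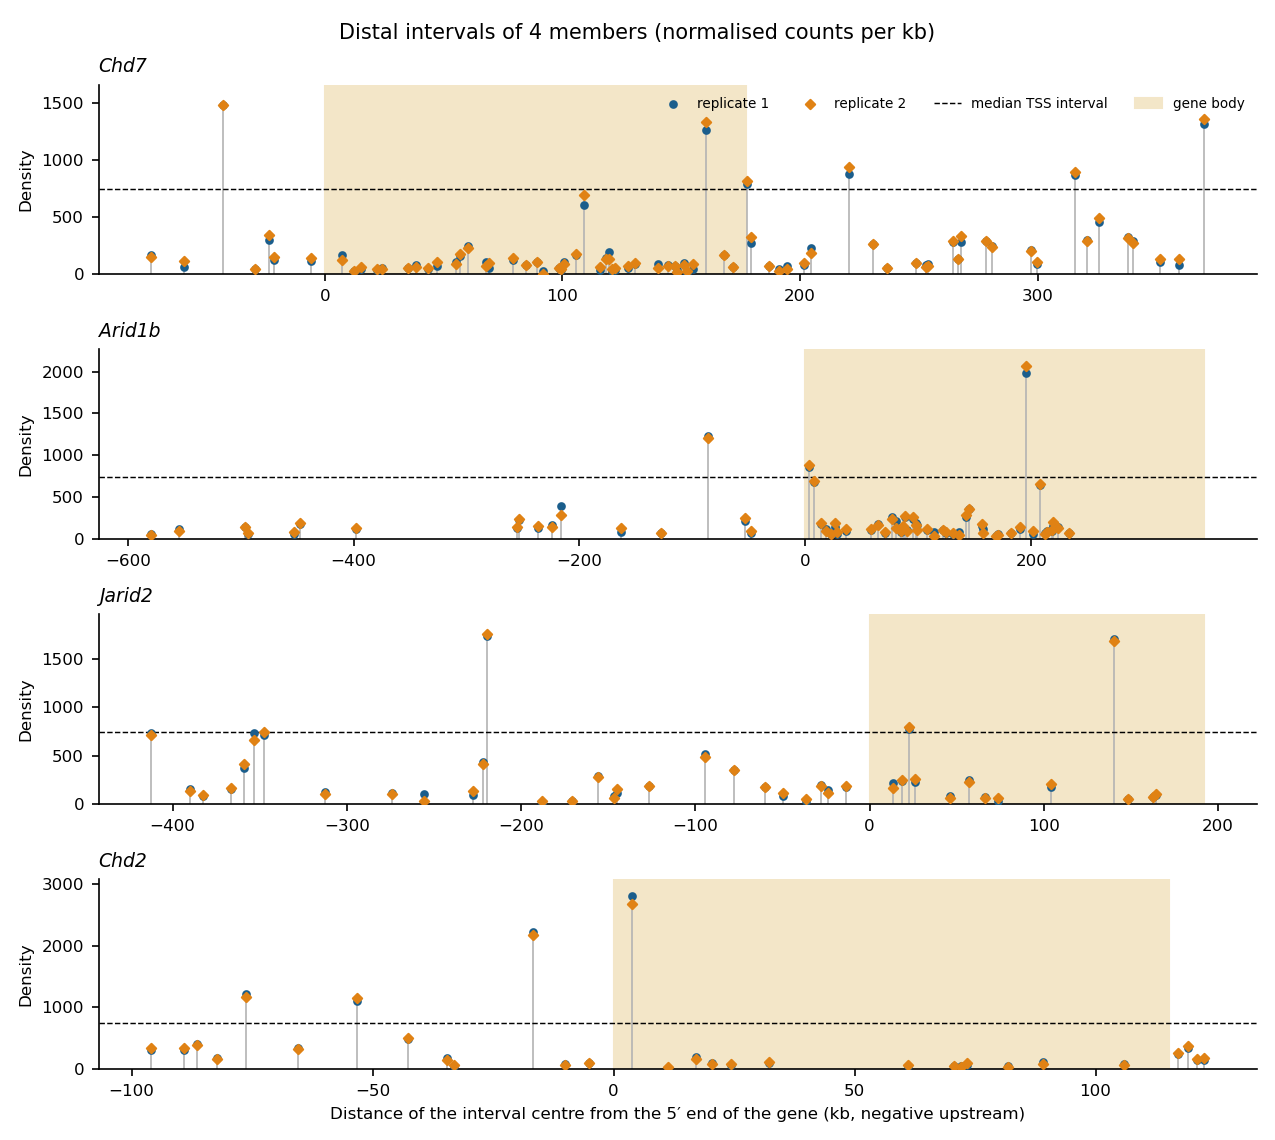
Density of each distal interval (y axis, normalised counts per kb) against the distance of its centre from the 5′ end of the gene (x axis, kb, negative upstream) for Chd7, Arid1b, Jarid2 and Chd2, with a point for each replicate. The shaded span is the gene body and the dashed line the median TSS interval (743), which 6 intervals of Chd7, 3 of Arid1b, 3 of Jarid2 and 4 of Chd2 exceeded.

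The next highest lay far from starts. In an intron of Arid1b, chr17:5189556-5190611 had 1983 and 2061, 149 kb from the nearest start and above the promoter of Arid1b itself. At Jarid2, chr13:44509475-44510146 had 1739 and 1763, 219 kb away over an exon of the non-coding gene Gm47792, and an intronic interval at chr13:44869570-44870023 had 1703 and 1689, 28.8 kb from a start. Chd7 had an intergenic interval at chr4:8647072-8648524 with 1487 and 1483, 41.9 kb away. Another Chd7 interval, chr4:9060049-9060995, had 1321 and 1361 at a distance of 205 kb, where assignment to Chd7 rests on the nearest start alone. The last, chr4:8850445-8851253, had 1261 and 1333 over a coding exon of Chd7, 3.98 kb from a start. No difference between replicates was called in these 8 intervals by the exact binomial test (adjusted p from 0.743 to 1).

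The central 300 bases of 4 of these intervals, those in no exon, are shown because they were as open as promoters. They were read from mm10 on the plus strand, and capitals mark CpG.
Arid1b, chr17:5189934-5190233, plus strand: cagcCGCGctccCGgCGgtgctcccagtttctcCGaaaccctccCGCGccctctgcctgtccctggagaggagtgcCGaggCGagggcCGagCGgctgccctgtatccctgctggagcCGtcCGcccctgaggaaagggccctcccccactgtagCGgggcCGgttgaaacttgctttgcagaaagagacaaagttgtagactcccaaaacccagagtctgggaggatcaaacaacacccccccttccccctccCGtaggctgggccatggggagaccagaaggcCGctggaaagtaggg
Jarid2, chr13:44869647-44869946, plus strand: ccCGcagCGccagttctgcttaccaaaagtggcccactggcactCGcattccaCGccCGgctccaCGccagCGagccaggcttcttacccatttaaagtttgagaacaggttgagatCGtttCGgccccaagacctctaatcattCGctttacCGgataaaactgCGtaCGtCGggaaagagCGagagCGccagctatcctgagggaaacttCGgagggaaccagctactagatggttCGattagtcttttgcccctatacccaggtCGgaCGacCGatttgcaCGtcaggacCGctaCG
Chd7, chr4:8647649-8647948, plus strand: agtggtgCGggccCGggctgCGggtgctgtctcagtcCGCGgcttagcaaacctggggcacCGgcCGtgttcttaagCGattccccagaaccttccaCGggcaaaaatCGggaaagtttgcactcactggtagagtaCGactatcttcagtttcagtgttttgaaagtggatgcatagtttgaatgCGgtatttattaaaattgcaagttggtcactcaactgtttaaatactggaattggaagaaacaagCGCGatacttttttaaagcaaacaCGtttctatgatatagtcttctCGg
Chd7, chr4:9060373-9060672, plus strand: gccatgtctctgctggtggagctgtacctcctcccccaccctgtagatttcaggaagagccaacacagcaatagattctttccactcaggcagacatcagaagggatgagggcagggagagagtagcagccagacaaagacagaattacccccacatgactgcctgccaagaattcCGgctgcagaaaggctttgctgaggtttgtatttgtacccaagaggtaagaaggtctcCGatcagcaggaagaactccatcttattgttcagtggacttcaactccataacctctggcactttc
The first 3 held 17, 24 and 16 CpG and the last held 2. Over all distal intervals the median centre held 3 CpG, and over those of members 4. Among the 24 member distal intervals above the median TSS interval the median was 10, and 11 (45.8%) held over 10, against 23.8% of the 3610 such intervals in the table. Some of the 24 lay close to a start, such as those of Chd2 at 17 bp, Chd3 at 104 bp and Arid1b at 900 bp. The CpG share without such intervals was not counted. The last Chd7 interval shows that a density at this level was also found with few CpG.

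Among the centres of member distal intervals, E-boxes, which neural bHLH factors read, were near their general share. The E-box CAGCTG occurred in 108 of 485 (22.3%), against 22.9% of all distal centres, CAGATG in 147 (30.3%), against 29.3%, and ACAATGG, read by SOX factors, in 34 (7.01%), against 8.54%. TAATTA, read by homeodomain factors, occurred in 25 (5.15%), against 7.84%. Where the normalised count averaged more than 100 it occurred in 1 of 155 (0.645%), against 7.62%.

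The replicates were close at these genes. The exact binomial test, adjusted over the whole table by the Benjamini-Hochberg method, called 0 of the 557 member intervals at 0.01, with 0% called over all 119502, and the lowest adjusted p of a member was 0.0327, at the Kmt2a promoter. An unadjusted p under 0.05 was found for 51 (9.16%), against 8.39% of all intervals. It was more frequent at member TSS intervals, 18 of 72 (25%) against 12.6% of all TSS intervals, than at member distal intervals, 33 of 485 (6.80%) against 7.73%. Promoter density was higher in replicate 1 for 42 of 52 members (80.8%), against 68.4% of genes with a TSS interval. These differences were small. Of 222 member intervals that averaged more than 100 normalised counts, 0 were over 1.5-fold apart, and the SD of their log2 ratio was 0.117. Among all intervals above that count, 44 of 46369 were over 1.5-fold apart, and the SD was 0.142. Such gaps were rare in general, so 0 of 222 does not set the members apart.

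At intervals of lower count some log2 ratios of replicate 2 to replicate 1 were larger, such as -1.35 at an Arid1b intron interval with 22 and 8 counts. Among member intervals that averaged more than 100 normalised counts, the largest differences between replicates were at intervals close to that limit. An intronic interval of Dpf3, chr12:83238783-83239151, had 128 and 95 counts, a log2 ratio of replicate 2 to replicate 1 of -0.43 (exact binomial test, adjusted p = 0.526). Another at Pcgf2, chr11:97689985-97690435, had 90 and 113 counts, a log2 ratio of 0.32, and another Dpf3 intron interval, chr12:83361850-83362230, had 91 and 113, a log2 ratio of 0.31 (adjusted p = 0.717 and 0.740 by the same exact test).

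Other subunits and partners of the same complexes were set beside the members. All 50 had a TSS interval, with a median density of 1074 ± 34.1. Above the median of all genes were 43 (86%), against 73.4% of genes with a TSS interval. In the upper quartile were 27 (54%), against 36.7%. The highest were Mbd3, a NuRD subunit that binds CpG-rich DNA, with 3069.6 ± 66.9, and Gatad2b, also of NuRD, with 1809 ± 59.0. The lowest were Smarca1, an ISWI ATPase on the X chromosome, with 151 ± 8.91, and the NuRD gene Mta3, with 406 ± 0.63. The 9 NuRD partners of Chd3, Chd4 and Chd5 had a median of 1206 ± 77.0, above each of these 3 ATPase genes.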

How the data were processed

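The 2 libraries were live-cell ATAC-seq of 1 group. The authors deposited raw fragment counts per consensus interval. Per the file header featureCounts 2.0.1 counted read pairs, with a minimum overlap of 0.2 of the fragment, and a fragment could count in every interval it overlapped. The study's methods name nf-core atacseq 1.2.0, build mm10 and MACS peaks at an FDR of 1e-05 found in at least 2 replicates. The table held 5 libraries, and 3 of its count columns match none of the samples and were left out, although they helped to define the intervals. An interval missing at a gene means that no peak passed, not that no fragment fell there.

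DESeq2 (1.42.0) size factors scaled the counts, with TMM factors (edgeR 4.0.16) and total counts as alternatives. Totals were 31876165 and 31672240. A TSS interval overlapped any transcript start of a protein-coding gene in GENCODE on the same assembly, and other intervals were distal and assigned to the nearest protein-coding start. The 2 counts of each interval were compared by a two-sided exact binomial test with Benjamini-Hochberg adjustment over 119502 intervals and a limit of 0.01, which compares libraries and not conditions. Tested on simulated data over 119502 intervals, it recovered 189 of 200 intervals changed 2-fold (94.5%) with 1 false call. By the same exact test 4.38% of unchanged simulated intervals had an unadjusted p under 0.05, against 8.39% of all intervals in the data. The simulation thus held less spread than the data, and its rates need not hold there. It gives no separate recovery for intervals of low count. Python 3.11.15, numpy 2.4.6, pandas 2.3.3, scipy 1.17.1 and matplotlib 3.10.9 were used. Fragments carried no molecular identifiers, so counting tests cover counting error only.

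The members, the lists and the pairs were chosen with earlier results of these data known. Named with values by rule were the paralogue pairs, the highest and lowest member of each family, members without a TSS interval or with a shared one, the 5 members with the most distal intervals, the 8 distal intervals of highest density and the 3 with the largest log2 ratio between replicates, both among intervals that averaged more than 100 normalised counts, and the 2 highest and 2 lowest of the other chromatin genes. Other members were named to complete their complexes, and other intervals to explain a value. Promoter sequences were credited to RefSeq on GRCm38.p6 for 43 members. Alternatives covered the scaling, the definition of a TSS interval, counts in place of density, filters on counts and the replicate left out. Fixed cells were not analysed here.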

Additional observations from a re-analysis of the deposited data

How the results depend on the processing

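The 2 libraries limit every SD to a single difference, and the depth sets a floor only where an interval was called. The ratio of the median member to the median of all genes was 1.72, and it was 2.07 with the 5′ end of each gene only, 2.70 as counts per gene, 1.65 with the strongest TSS interval only, 1.78 with starts of coding transcripts only (chosen after seeing the data), 1.02 among genes with a TSS interval only, and 3.84 without TSS intervals shared with another gene. The median member density of 842 became 1863 as a count per gene. Members above the median numbered 46 against all genes and 28 against genes with a TSS interval. Distal intervals nearest to a member numbered 485, 242 with the nearest start among all annotated genes, and 155 with an average of more than 100 normalised counts. The log2 ratio of Bmi1 to Pcgf2 turned from -0.11 to 0.047 both with the 5′ end only and with the strongest TSS interval only. As counts per gene, Smarca4 over Smarca2 was -1.01 and Smarcd1 over Smarcd3 was -1.26, where the length of the TSS intervals sets the difference. With TMM factors or total counts 0 member intervals were called, and 52 and 50 had an unadjusted p under 0.05 in place of 51. Over all alternatives, 82 values of pair ratios moved by less than the spread between replicates, 30 moved by more in the same direction and the 4 just named changed sign. Of family medians 45 moved by less than that spread and 18 by more, and of motif shares over whole TSS intervals 5 and 5, with YY1 letters moving from 4.08% to 23.6%. For pair ratios and medians, leaving out a replicate moves a value by less than the spread almost by construction. The choice of scaling nearly cancels in these values. Small moves under these settings are thus no check of stability. No paired comparison of conditions was possible because the series holds 1 group only.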
